A study of Mus musculus with 3 samples.

Results

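The accessible regions described here are those that an ATAC-seq library of NIPBL-degron myeloid progenitors listed after 72 h with dTAG and that neither earlier library listed. They were selected on their presence in and absence from the lists and on their length, as regions of the 72 h peak list on chromosomes 1 to 19 and X, at least 200 bp long, that shared no base with any region of the 0 h list or of the 6 h list. The rule found 1843 regions, 3.65% of the 50540 eligible regions of the 72 h list (95% Clopper-Pearson interval 3.48 to 3.81%). The whole 72 h list held 145044 regions and the 3 lists together 505332. Because presence, absence and length chose the regions, these counts are descriptions and none of them was tested.

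All 3 libraries came from the mouse ECOMG line, a myeloid progenitor cell line of genotype FKBP12F36V_NIPBL, cultured with GM-CSF and estradiol. The first was made without dTAG (0 h), the second 6 h after its addition and the third after 72 h. Every library used 50000 cells. There was 1 library per time, so differences between times lack any replicate check and no p-value is given. No untreated library of 6 h or 72 h was used here, so dTAG, time in culture and the library itself cannot be told apart. All 3 libraries carried the tagged NIPBL and estradiol, and the labels do not say whether the line is 1 clone. The lists hold the loci of the progenitor marker Myb and of the granule enzyme Mpo in every library, with 18, 17 and 19 regions around Myb and 9, 14 and 7 around Mpo at 0, 6 and 72 h. Around Kit, the stem and progenitor receptor, the 0 h list had 7 regions, the 6 h list 5 and the 72 h list 0. How far NIPBL was depleted is not measured by these lists.

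NIPBL loads the cohesin ring onto DNA, and cohesin then extrudes chromatin loops until it meets CTCF or is released. A degron-tagged protein is broken down when dTAG bridges the tag to a ubiquitin ligase. ATAC-seq maps DNA that a transposase can reach, which in most cells means promoters and the distal enhancers that set apart one cell type from another. In myeloid cells distal elements are bound by factors such as PU.1, C/EBP and RUNX proteins, and housekeeping promoters are GC-rich and open in nearly all cells.

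The promoters reached by these regions are shown first, since so few were. Of the 1784 regions on chromosomes with promoter windows in RefSeq's table, only 18 overlapped a window, which spans 250 bases before to 50 bases after a gene's start. Printed below are the 6 protein-coding windows in which a region covered at least 100 bases, from RefSeq on GRCm38.p6 (mm10), 5′ to 3′ on the gene's strand. Capitals mark every match to the 18 motifs named further on.

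Wfdc17 promoter, chr11:83703806-83704105, plus strand: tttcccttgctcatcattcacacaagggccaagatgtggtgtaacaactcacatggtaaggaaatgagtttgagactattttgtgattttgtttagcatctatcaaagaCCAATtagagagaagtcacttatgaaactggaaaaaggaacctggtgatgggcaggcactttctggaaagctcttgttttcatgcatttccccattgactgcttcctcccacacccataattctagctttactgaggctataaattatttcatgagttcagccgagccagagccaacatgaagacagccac
Cd101 promoter, chr3:101029504-101029803, minus strand: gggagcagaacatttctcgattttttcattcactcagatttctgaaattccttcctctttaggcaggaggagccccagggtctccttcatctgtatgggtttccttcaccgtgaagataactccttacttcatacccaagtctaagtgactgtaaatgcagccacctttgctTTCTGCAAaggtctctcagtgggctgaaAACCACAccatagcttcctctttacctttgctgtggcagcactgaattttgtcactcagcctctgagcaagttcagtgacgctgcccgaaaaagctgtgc
Mustn1 promoter, chr14:30879007-30879306, plus strand: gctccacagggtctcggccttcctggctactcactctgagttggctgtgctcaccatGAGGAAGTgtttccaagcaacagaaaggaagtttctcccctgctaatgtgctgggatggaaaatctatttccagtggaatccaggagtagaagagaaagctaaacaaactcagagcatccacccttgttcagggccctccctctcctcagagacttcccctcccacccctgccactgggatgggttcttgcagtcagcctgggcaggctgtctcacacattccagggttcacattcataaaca
Tnfsf18 promoter, chr1:161494407-161494706, plus strand: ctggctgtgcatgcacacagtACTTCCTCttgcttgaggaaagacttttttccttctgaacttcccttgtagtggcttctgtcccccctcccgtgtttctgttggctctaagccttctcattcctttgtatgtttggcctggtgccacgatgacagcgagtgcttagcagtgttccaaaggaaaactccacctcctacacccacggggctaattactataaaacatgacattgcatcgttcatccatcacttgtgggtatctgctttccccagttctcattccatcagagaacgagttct
Fpr1 promoter, chr17:17883890-17884189, minus strand: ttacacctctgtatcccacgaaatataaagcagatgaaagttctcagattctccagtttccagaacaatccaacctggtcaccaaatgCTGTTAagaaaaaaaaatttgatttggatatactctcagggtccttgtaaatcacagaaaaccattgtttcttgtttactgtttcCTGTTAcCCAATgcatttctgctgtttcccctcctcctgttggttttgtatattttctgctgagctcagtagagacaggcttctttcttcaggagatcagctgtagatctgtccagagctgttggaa
Fpr2 promoter, chr17:17887574-17887873, plus strand: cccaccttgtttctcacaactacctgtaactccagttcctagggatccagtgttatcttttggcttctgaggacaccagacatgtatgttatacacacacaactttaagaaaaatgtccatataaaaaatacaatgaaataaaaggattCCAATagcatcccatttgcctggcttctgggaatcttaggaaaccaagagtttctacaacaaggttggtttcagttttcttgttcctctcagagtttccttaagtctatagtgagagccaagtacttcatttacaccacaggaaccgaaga

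The 72 h region over the Wfdc17 start covered all 300 bases shown and had a fold of 46.8, the highest of the 18. Each fold is the ratio of the region's summit to background as the authors' peak caller wrote it for that library, and it ranks regions only within a list. Wfdc17 encodes a secreted WAP-domain protein of mouse myeloid cells. The capitals in its window mark 1 CCAAT box, at bases 110 to 114. The region over Cd101, an immunoglobulin-family surface protein found on myeloid and T cells, covered bases 4 to 300 with a fold of 5.46. Its window held a C/EBP match at bases 173 to 180 and a RUNX match that ended at base 207. The windows of Mustn1, a nuclear protein studied in muscle and bone, and of Tnfsf18, the ligand of the T-cell receptor GITR, each held 1 PU.1 match, at bases 58 to 65 and 22 to 29, inside regions with folds of 3.90 and 6.25. Regions reached the formyl peptide receptor genes Fpr1 and Fpr2 from base 170 and base 193 of their windows to the last base. In Fpr1 a MYB match at bases 174 to 179 and a CCAAT box at bases 181 to 185 lay under the region, and in Fpr2 the only match, a CCAAT box at bases 150 to 154, lay outside it.

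The 18 windows were poorer in GC and CpG than promoters under regions that were also listed earlier. Their GC content had a median of 47.2% (32.3 to 61.7%), against 62.0% in the 11125 windows that overlapped a 72 h region of the same length minimum that was also listed earlier, and 53.0% in all 32619 windows. They held a median of 3 CpG dinucleotides, against 22 in the windows of those shared regions and 7 in all windows. Those shared regions also had higher folds, and no set of similar fold was used for the windows. Some of the 18 windows were barely reached, with an overlap as short as 20 bases. The GC box bound by SP and KLF factors was found in 1 of the 18, 5.56% (0.141 to 27.3%), against 67.1% of the windows of shared regions and 35.9% of all. C/EBP letters were found in 4 of the 18, 22.2% (6.41 to 47.6%), against 8.22% and 10.9%. PU.1 letters were found in 3 of the 18, 16.7% (3.58 to 41.4%), against 3.76% and 3.22%. The intervals for C/EBP and for PU.1 are wide, and for C/EBP it takes in both other shares. That for PU.1 takes in the 3.76% of windows of shared regions and starts just above the 3.22% of all windows.

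The motifs were searched on both strands with exact letters, where N is any base. They were C/EBP (TTGCNNAA), PU.1 (GAGGAAGT), ETS (CCGGAAGT), the C/EBP-ATF4 composite (TGATGCAA), AP-1 (TGANTCA), CRE (TGACGTCA), RUNX (TGTGGTT), CTCF, AGATAAG for factors of the zinc-finger family GATA, MYB (TAACNG), the MYC E-box (CACGTG), NF-kB, ISRE, the ETS-IRF composite, STAT (TTCCNGGAA), HOXA9 (TGATTTAT), SP/KLF (GGGCGG) and NFY (CCAAT). A base may lie in matches of more than 1 motif, and each motif was counted on its own. AP-1 letters were in 3 of the 18 windows, 16.7% (3.58 to 41.4%) against 7.85% of all. MYB letters were in 6, 33.3% (13.3 to 59.0%) against 23.4%, and CCAAT in 8, 44.4% (21.5 to 69.2%) against 37.6%. Each of these intervals takes in the share over all windows. The ETS, CTCF, CRE, GATA, NF-kB and HOXA9 letters were in 0 of the 18, which allows a share of up to 18.5%. Over all windows those motifs were found in 3.91%, 2.44%, 1.80%, 3.04%, 0.414% and 0.981%, in that order. The other 5 motifs, the C/EBP-ATF4 composite, MYC E-box, ISRE, ETS-IRF composite and STAT, were each in 1 window, 5.56%, as was RUNX, and their shares over all windows were between 0.880 and 7.20%, with RUNX at 5.29%. A match is a stretch of letters, not a bound site.

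The same rule found far fewer regions in the other lists. It found 215 of 48043 regions (0.448%, 0.390 to 0.511%) only at 0 h and 187 of 49720 (0.376%, 0.324 to 0.434%) only at 6 h, beside the 1843 of 50540 only at 72 h. The 3 counts do not have the same reading. A region found only at 0 h or only at 6 h had to be missed by a library just 6 h away, while a region found only at 72 h had to be missed by libraries much farther away in time. Of the 0 h regions of the same length, 2832 (5.89%, 5.69 to 6.11%) were listed at 6 h and absent at 72 h, a criterion unlike that of the 1843, which had to be absent from both earlier lists. Set against the 0 h list alone, 3202 of the 72 h regions (6.34%) were absent at 0 h and 3047 of the 0 h regions (6.34%) were absent at 72 h. Among regions with a fold of at least 20 the 2 counts were 625 of 34652 (1.80%, 1.67 to 1.95%) absent at 0 h and 198 of 29567 (0.670%, 0.580 to 0.769%) absent at 72 h. A fold ranks regions only within its own list, so a fold of 20 is not the same cut in both lists. Absence also depends on the size of the other list, 182233 regions at 0 h and 145044 at 72 h. These 2 shares are therefore not on 1 scale.

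The regions found only at 72 h were longer than those found only at the earlier times. Without a length minimum, 35894 regions were found only at 0 h, 28964 only at 6 h and 23783 only at 72 h. Of these 0.599%, 0.646% and 7.75% reached 200 bp. At lengths under 100 bp the 72 h list had the fewest regions of its own, 13549 against 29465 at 0 h and 23420 at 6 h. From 200 to under 250 bp it had 1074, against 155 at 0 h and 150 at 6 h, and at 400 bp or more it had 53, against 0 at 0 h and 1 at 6 h. The most frequent kind of region found in only 1 list was therefore short and came from the earlier libraries, and the excess at 72 h began at about 100 bp.

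**Figure D1:**
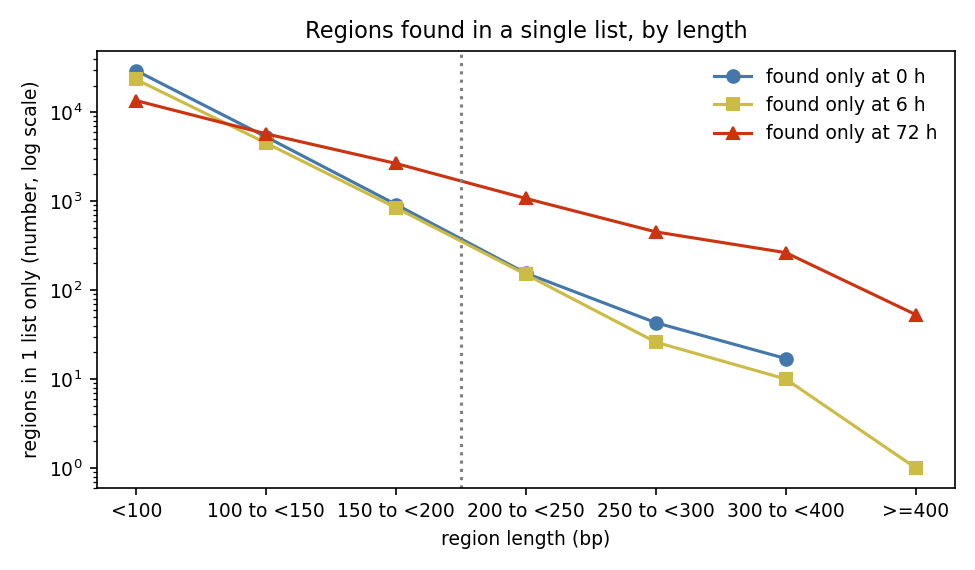
Number of regions found in 1 list only (vertical axis, log scale) by region length in bp (horizontal axis), for regions found only at 0 h (blue circles), only at 6 h (yellow squares) and only at 72 h (red triangles); the dotted line marks the 200 bp minimum of the rule. The red points lie lowest under 100 bp (13549 regions) and highest from 100 bp up, with 1074 from 200 to under 250 bp against 155 and 150 at 0 h and 6 h; 0 h has no point at 400 bp or more because its count is 0. Under 100 bp the lists held 64898, 58580 and 39118 regions in all at 0, 6 and 72 h.

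Most of the 1843 regions were weak to moderate. Their folds ran from 3.12 to 178 with a median of 10.9, a middle 50% of 7.81 to 15.6 and a 90th percentile of 23.4. Their lengths ran from 200 to 635 bp with a median of 239 bp. The −log10 q-values of the authors' caller had a median of 16.4. Folds of at least 10 were reached by 1049 regions (56.9%), of at least 20 by 272 (14.8%) and of at least 40 by 34. Of the regions found only at 0 h or only at 6 h, 1 and 2 reached a fold of 10. The 48697 regions of 200 bp or more that the 72 h list shared with an earlier list had a median fold of 34.3 and a median length of 301 bp. All folds lay on an even grid, within 0.01 of a step. If a fold is summit fragments plus 1 over background plus 1, the median region found only at 72 h had 13 fragments at its summit and the weakest had 3.

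Weak regions were missed elsewhere more often than strong ones. Of 72 h regions with a fold under 5, 109 of 467 (23.3%, 19.6 to 27.4%) were found only at 72 h. The share was 14.6% at folds of 5 to 10, 7.24% at 10 to 20, 1.81% at 20 to 40 and 0.287% at 40 to 80. At 80 or more it was 1 of 10024, 0.00998%. The rule is linked to fold in this way, so folds of the chosen regions are given as descriptions only.

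**Figure D2:**
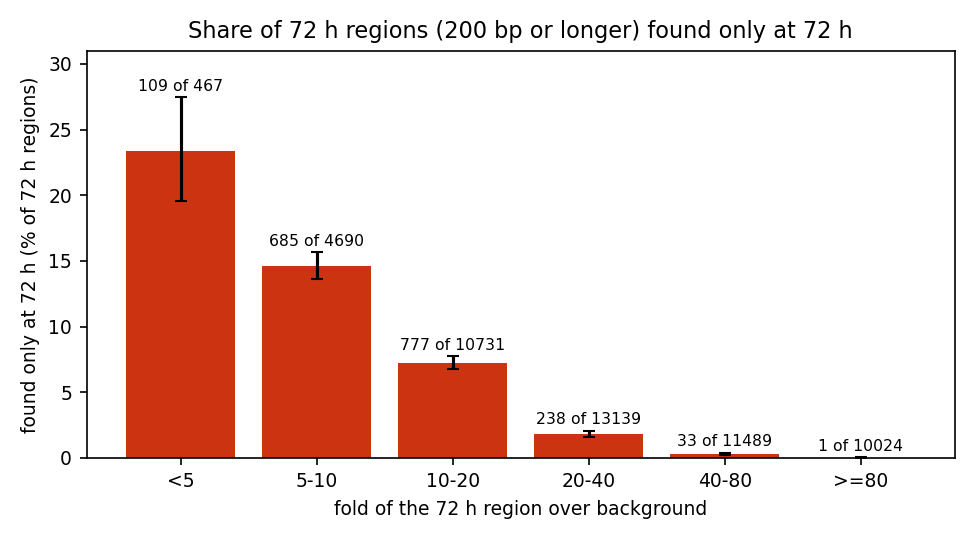
Share of the 72 h regions of at least 200 bp that were found only at 72 h (vertical axis, percent) in 6 classes of fold over background (horizontal axis); bars start at 0, whiskers are 95% Clopper-Pearson intervals and the numbers above are regions found only at 72 h of all 72 h regions in the class. The share falls from class to class, with 23.3% under a fold of 5, 7.24% at 10 to 20 and 0.287% at 40 to 80.

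At the edges of the rule the values ran on without a step. The 173 regions less than 5 bp above the length minimum had a median fold of 9.37 (3.90 to 27.3), and the further 72 h regions in no earlier list that were up to 5 bp too short had a median of 8.59 (3.90 to 32.8). The 6 regions within 10 bp of an earlier region had a median of 7.81, and the 9 regions that overlapped an earlier region by at most 10 bp, and so fell outside the rule, had a median of 10.1.

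The gap to the nearest 0 h or 6 h region had a median of 1192 bp and a maximum of 58466 bp. It was at most 200 bp for 264 regions (14.3%), at most 1000 bp for 847 (46.0%) and over 10 kb for 128. Regions found only at 0 h and only at 6 h lay nearer to a region of the other lists, with medians of 437 and 785 bp and 60.5% and 56.1% within 1000 bp. The regions within 200 bp of an earlier one had a median fold of 8.59, and those 1 to 10 kb away one of 10.9. Among the isolated regions, over 10 kb from any earlier one, the folds ran up to 41.4. They included 1 inside Rbl1, which encodes the retinoblastoma-related protein p107, with a fold of 39.8, and 1 in Samd4, an RNA-binding translational repressor, with 39.0. Another lay 13502 bp from Pdk4, a kinase that restrains pyruvate oxidation, with a fold of 35.9 and the nearest earlier region 36832 bp away. Those 3 genes were picked after their values were seen.

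Few of the regions found only at 72 h lay at gene ends or starts. Gene ends here are both ends of a protein-coding RefSeq span, since the table of spans gives no strand. Within 1 kb of such an end lay 8.19% of the 1843 regions ( 6.98 to 9.54%), against 29.3% of the shared 72 h regions (28.9 to 29.7%). Shared regions had higher folds. Among the 8613 shared regions with folds of 7.81 to 15.6, the middle 50% of the regions found only at 72 h, the share was 20.5% (19.7 to 21.4%). Among the 2832 regions listed at 0 h and 6 h and absent at 72 h it was 15.7% (14.4 to 17.1%). All these intervals cover counting error within 1 library only, and neighbouring regions are not independent.

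The promoter windows gave the same order with the direction of the gene known. Regions found only at 72 h overlapped a window in 1.01% (18 of 1784, 0.599 to 1.59%), against 18.97% of shared regions (8975 of 47303), 5.28% of shared regions of similar fold (442 of 8374) and 4.70% of the regions absent at 72 h (129 of 2743). Under 1 kb from a start site lay 5.77% of the regions, from 1 to 10 kb 32.1%, from 10 to 50 kb 43.9%, from 50 to 100 kb 9.08% and at 100 kb or more 9.14%. Shared regions of similar fold had 20.2, 27.8, 33.9, 9.25 and 8.85% in the same classes. The difference from them lay under 1 kb, where the regions found only at 72 h were rarer, and between 1 and 50 kb, where they were more frequent. Regions found only at 0 h had 20.1% under 1 kb and 30.6% at 10 to 50 kb. Those found only at 6 h had 11.4% and 44.3%, so the high share at 10 to 50 kb was not particular to 72 h. The median distance to a start site was 15275 bp, against 7970 bp for shared regions and 11108.5 bp for those of similar fold. The regions absent at 72 h had a median of 15287 bp.

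**Figure D3:**
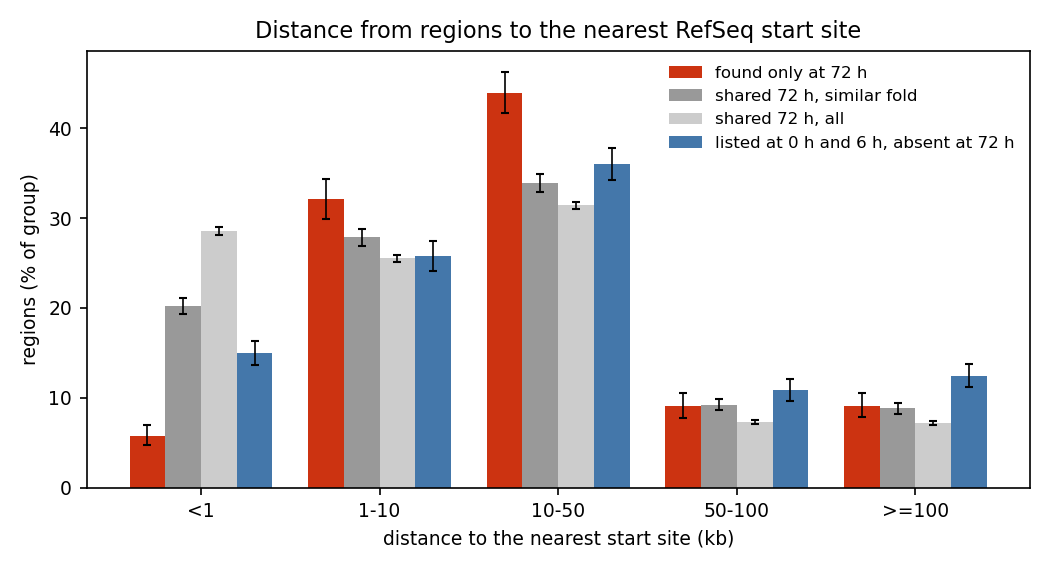
Share of each group of regions (vertical axis, percent) by distance to the nearest RefSeq start site in kb (horizontal axis), for regions found only at 72 h (red), shared 72 h regions with folds of 7.81 to 15.6 (dark grey), all shared 72 h regions (light grey) and regions listed at 0 h and 6 h and absent at 72 h (blue); whiskers are 95% Clopper-Pearson intervals. Under 1 kb the red bar is the lowest (5.77%) and the light grey bar the highest (28.6%), and at 10 to 50 kb the red bar is the highest (43.9%). Regions found only at 6 h, not drawn here, had 11.4% under 1 kb and 44.3% at 10 to 50 kb.

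Most of the regions found only at 72 h lay inside genes. Over 1 kb from any end and inside a coding span were 970 (52.6%, 50.3 to 54.9%), against 39.6% of shared regions and 44.0% of those of similar fold. Outside spans and over 1 kb from any end were 722 (39.2%, 36.9 to 41.4%), against 31.1% and 35.4%. Regions found only at 0 h and only at 6 h had 41.4% and 45.5% (38.2 to 52.9%) inside. Outside they had 39.5 and 40.6%, so the share outside was not particular to 72 h. Of all regions 460 (24.96%) were over 10 kb outside every coding span. The folds inside and outside spans had the same median, 10.9, and those at gene ends had 8.59. Regions with a fold of at least 20 made up 16.4% of those inside spans, 13.6% of those outside and 9.93% of those at gene ends.

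Every chromosome held some. The share of 72 h regions found only at 72 h was highest on the X, 57 of 1029 (5.54%, 4.22 to 7.12%), and lowest on chromosomes 11 and 8, with 2.60 and 2.61%. Only 3 of the 57 regions on the X reached a fold of 20 (5.26%), against 15.1% of those on the autosomes. In 1 Mb bins with 0 to 2 coding genes the share was 5.45% (152 of 2790), with 3 to 8 genes 4.44% (609 of 13726) and with 9 or more 3.18% (1082 of 34024). The regions absent at 72 h had the same order, with 11.9, 6.55 and 5.17% of 0 h regions.

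Each region was assigned to the nearest coding span within 100 kb, which paired 1749 regions with 1444 genes and left 94 unassigned. Nearness does not show which gene an element acts on. The regions were spread thinly, with 1210 genes holding 1, 183 holding 2, 34 holding 3, 15 holding 4, 1 holding 5 and 1 holding 6. By the rule for naming genes (the 15 with the most regions, predicted and clone-named genes left out), the list was led by Ccny, which encodes cyclin Y, and by Prkcb, which encodes protein kinase C beta, a signalling kinase of leukocytes. The others, with 4 regions each, were Dock10, Dtx4, Lcp1, Tlr4, Tnfsf18, Cab39, Arid5b, Tent4b, Mthfs, Rab8b, Asap1, Apol8 and Myh9.

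The 6 regions assigned to Ccny all lay beyond the gene, 35844 to 57694 bp outside the span, in a stretch of 22060 bp on chromosome 18. Their folds were 16.4, 7.03, 15.6, 8.59, 8.59 and 9.37. Each had a 6 h region within 1078 bp, the nearest at 173 bp with a fold of 3.01 in its own list. The 5 regions of Prkcb lay inside the gene. At chr7:122356449-122356823 the fold was 56.2, with the nearest 0 h region 8702 bp away and the nearest 6 h region 1165 bp away, and the other 4 had folds of 27.3, 19.5, 18.7 and 5.46. The Prkcb span with 10 kb on each side held 47, 46 and 46 regions at 0, 6 and 72 h, and those of at least 200 bp numbered 12, 10 and 18. The total around Prkcb thus hardly differed between lists. The 18 longer regions at 72 h include the 5 chosen ones, which the rule required to be that long and absent earlier. A higher count of longer regions at 72 h is therefore partly built into the choice of the gene. The same holds for the other named loci below.

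Dock10 encodes a guanine nucleotide exchange factor, and 2 of its 4 regions were inside the gene. They had folds of 64.8 at chr1:80609660-80610040, 3442 bp from a 0 h region and 3427 bp from a 6 h region, and 20.3. The regions of Lcp1, which encodes the leukocyte actin bundler L-plastin, had folds of 33.6, 10.1, 7.81 and 6.25. Those of Dtx4, an E3 ubiquitin ligase of the Deltex family, had folds of 49.96, 27.3, 20.3 and 5.46, and 3 of them lay together within 7692 bp inside the gene. Nearest to Tlr4, the receptor for bacterial lipopolysaccharide, were 4 regions at 10650 to 48094 bp from the span, and the strongest (chr4:66793515-66793743) had a fold of 33.6, and the nearest earlier region was 12136 bp away. Tnfsf18 had regions with folds of 20.3 and 17.2 at 12043 and 14726 bp beyond the gene, which were 19754 and 22437 bp from the nearest earlier region, and the promoter region printed above.

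Around Rab8b, a small GTPase of membrane traffic, all regions found only at 72 h had folds of 7.81 to 13.3. Its span with 10 kb on each side listed 28, 25 and 44 regions at 0, 6 and 72 h, and 5, 8 and 20 of these reached 200 bp. Around Cab39, a scaffold of the LKB1 kinase, the lists held 11, 9 and 19 regions, and 4, 4 and 10 of at least 200 bp. The 4 regions found only at 72 h in Cab39 had folds of 4.68 to 18.7. In both loci, regions found only at 72 h were a minority of the longer 72 h regions, 4 of 20 around Rab8b and 4 of 10 around Cab39.

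The single highest fold, 178, belonged to a region inside Ttll1, a tubulin polyglutamylase, at chr15:83493939-83494185. Its summit was 10 bp from its start, its −log10 q was 562 and the nearest earlier regions were 3249 bp (0 h) and 3234 bp (6 h) away. No other region found only at 72 h had a fold above 68.7. That value was shared by regions inside Shq1, a factor for the assembly of box H/ACA ribonucleoproteins (chr6:100601699-100602057), and inside Atg7, an enzyme required for autophagosome formation (chr6:114654044-114654480). Next were regions 12442 bp from Il1f10, an interleukin-1 family cytokine, with 65.6, inside Dock10 with 64.8 and 49373 bp from Corin, a serine protease, with 64.0. Further down came Prkcb (56.2), Ipcef1 and Mbd2 (53.1 each), Serpinb9g (52.3), Fgd3 (51.5) and Fpr1 (49.96). Of the 15 highest, 2 lay over 100 kb from any coding gene, with folds of 57.8 and 50.7. Of the 15, 9 lay inside a coding span, and only that of Fpr1 lay within 1 kb of a gene end.

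Neighbouring regions formed a few dense groups. With gaps of at most 20 kb, the 1843 regions fell into 1648 groups, of which 1495 were lone regions, 128 were pairs and 25 held 3 or more. The largest held 9 regions over 50529 bp at chr15:77736444-77786972, across Apol9b, Apol8 and Myh9. Apolipoprotein L genes are a family of lipid-binding proteins, and Myh9 encodes non-muscle myosin heavy chain. All 9 were weak, with folds of 3.90 to 7.03. The same stretch held 14, 22 and 68 regions at 0, 6 and 72 h, which covered 4.56, 6.78 and 25.4% of it, and 3, 6 and 21 of these reached 200 bp. The 21 include the 9 chosen regions. Within their own lists the regions there had median folds of 9.83, 6.03 and 5.07, in the same order of times. The other groups were smaller. A group of 6 lay across Trem1, Trem3 and Treml4 over 44085 bp, the 6 regions beyond Ccny formed another, and a group of 5 over 8594 bp lay farther from Trem1.

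Gene lists were then read against all coding genes, for which 1383 of the 40859 72 h regions of at least 200 bp in a locus (a span with 10 kb on each side) were found only at 72 h, 3.38% (3.21 to 3.56%). At least 1 such region lay in the locus of 1463 of 21631 coding genes (6.76%), and at least 2 in that of 0.929%. The lists were written with earlier results of these data known, no list was tested, and the median number of regions per gene was 0 in every list.

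Loci of mature neutrophil genes held 13 regions found only at 72 h among 124 (10.5%, 5.70 to 17.3%), and 9 of 30 genes had at least 1. A region shared by neighbouring genes counts once among the 13 but for each gene among the 9. In bulk cells, a site open in a few cells and a site weakly open in all cannot be told apart, nor can more cells of a mature type. Fpr1 and Fpr2, receptors that guide neutrophils towards bacterial formyl peptides, lie side by side and shared 3 of them. Their folds were 49.96, 13.3 and 7.03, and the nearest earlier regions were 7186, 6140 and 2046 bp away in both lists. Around Fpr1 the lists held 7, 6 and 14 regions at 0, 6 and 72 h, and 1, 3 and 8 of at least 200 bp. The 8 include the 3 chosen regions. Trem1, a receptor that amplifies inflammatory signals in myeloid cells, had a region inside the gene with a fold of 48.4, 1763 bp from a 0 h region and 575 bp from a 6 h region. It shared a second one, with a fold of 8.59, with its neighbour Trem3, which had 2 more of 13.3 and 11.7. Around Trem3 the lists held 5, 3 and 10 regions, and 1, 1 and 6 of at least 200 bp, where the 6 include its 3 chosen regions. S100a9, a subunit of the calcium-binding protein calprotectin, had 2, with folds of 14.8 and 20.3. Ccl6, Clec4d and Ccrl2 had 1 each, with folds of 6.25 to 9.37. Without the regions of the Fpr1 and Fpr2 loci the list's share was 8.70% (10 of 115, 4.25 to 15.4%). Without those of the Trem1 and Trem3 loci it was 7.89% (9 of 114, 3.67 to 14.5%). Both alternatives were chosen after seeing the data. Leaving out both pairs of loci at once was not run. The pairs lie far apart on chromosome 17, and together they hold most of the list's 13 regions. The list's share without both would therefore be lower than either of these 2 values, and its interval was not computed.

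**Figure D4:**
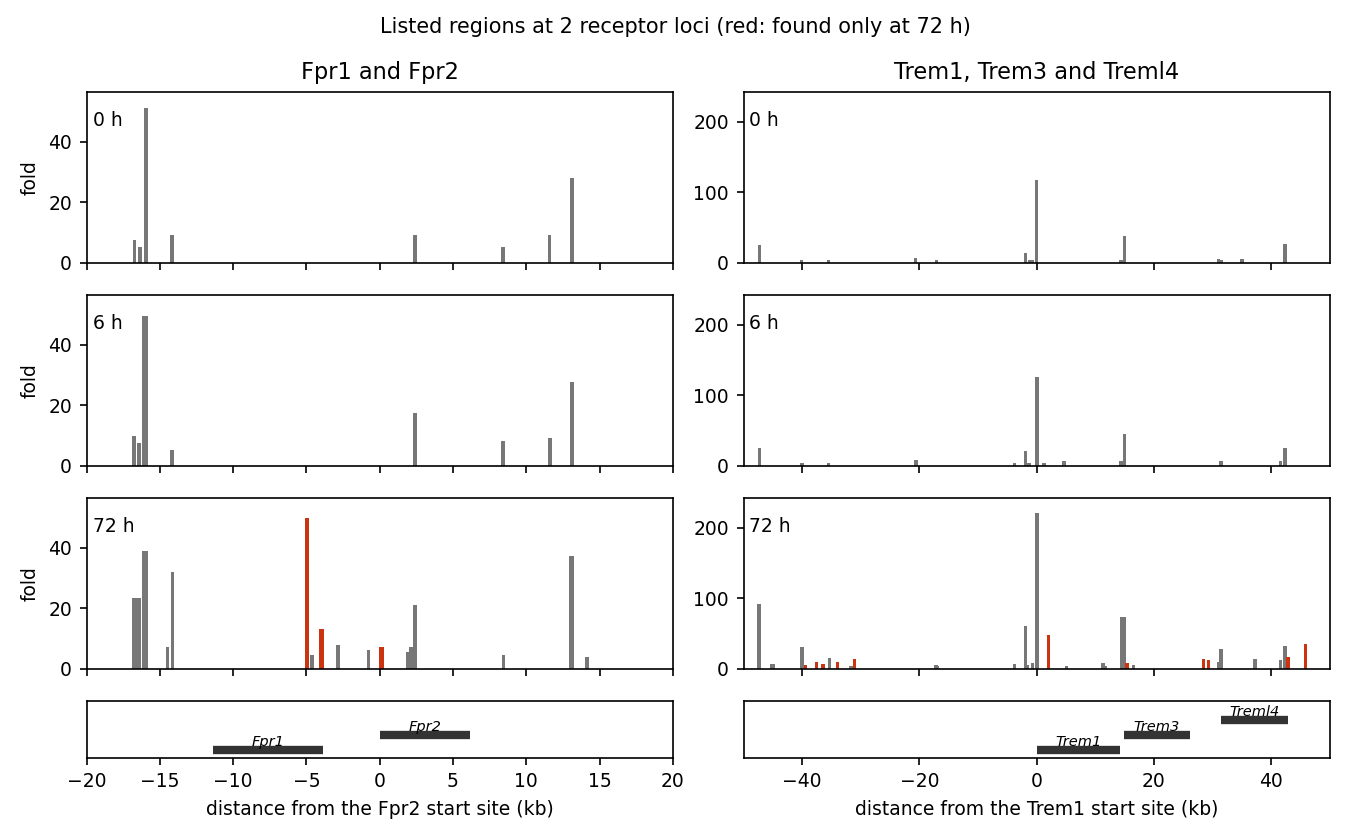
Listed regions of any length around Fpr1 and Fpr2 (left) and around Trem1, Trem3 and Treml4 (right) at 0, 6 and 72 h (top to bottom), with distance from the Fpr2 or Trem1 start site in kb on the horizontal axis and the region's fold in its own list on the vertical axis; bars in red were found only at 72 h, bars in grey are all others, and the black boxes at the bottom are gene spans. The 3 red bars at Fpr1 and Fpr2 have folds of 49.96, 13.3 and 7.03 in a stretch where neither earlier list has a region, and the highest red bar at Trem1 (48.4) lies beside a grey bar present at all times.

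Leukocyte signalling and adhesion genes had the most genes with at least 1 such region, 16 of 41, and 22 of 305 regions (7.21%, 4.58 to 10.7%). Among regions with a fold of at least 10 the share was 3.36% (1.55 to 6.28%), an interval that took in the 2.12% over all coding loci at that fold. Syk, a kinase downstream of Fc receptors and integrins, had 3, with folds of 37.5, 21.9 and 4.68. Plek, which encodes pleckstrin, had 3 of 16.4, 9.37 and 3.90, and 2 of these lay within 413 bp of a strong earlier region. Dock10 had 3 within its locus. Ly9, a SLAM-family receptor, had 2 of 10.1 and 5.46, and the weaker is shared with Cd244a. The other 12 genes had 1 each. Of the 224 0 h regions in these loci, 3 were listed at 6 h and absent at 72 h (1.34%, 0.277 to 3.86%), against 4.99% over all coding loci. A low share was not particular to this list, with 1.39% for survival, 1.47% for inflammatory and 2.46% for housekeeping loci. Only the monocyte and macrophage, progenitor, mast cell, erythroid and cell cycle lists lay above 4.99%.

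Interferon-response loci held 7 of 78 regions (8.97%, 3.68 to 17.6%) in 6 of 28 genes. Irf1, a transcription factor of interferon signalling, had 2, with folds of 14.8 and 11.7, and the others were Gbp3, Gbp5, Ifi204, Isg20 and Stat2 with 1 each. Granule protein loci held 8 of 126 (6.35%, 2.78 to 12.1%) in 6 of 28 genes. Cybb, the catalytic subunit of the phagocyte NADPH oxidase, had 2, with folds of 7.81 and 5.46, at 4948 and 3810 bp from any earlier region. Cd177, Ctsc, Olfm4 and Padi4 had 1 each. The interval of the granule list took in the share over all coding genes. That of the interferon list did not, but with 50 kb on each side its share was 5.68% (2.76 to 10.2%), which took in the 3.55% over all coding genes at that setting.

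In inflammatory and NF-kB loci there were 10 of 206 (4.85%, 2.35 to 8.75%) in 9 of 40 genes. Il1rn, the antagonist of the interleukin-1 receptor, had 3, with folds of 35.9, 14.8 and 14.1. Its locus listed 0, 1 and 5 regions of at least 200 bp at 0, 6 and 72 h, and the 5 include these 3. Cell cycle loci held 11 of 164 (6.71%, 3.40 to 11.7%) in 9 of 33 genes, with a lower bound just above the 3.38% over all coding loci and 2 each in Cdk6, a G1 kinase, and Mki67, a proliferation marker. At a fold of at least 10 the cell cycle interval was 1.14 to 7.97%, which took in the 2.12% over all coding loci. The intervals with the 200 bp gap and with 50 kb on each side also took in the matching shares. Progenitor and stem loci held 5 of 115 (4.35%, 1.43 to 9.85%) in 4 of 25 genes. Myb had 2, with folds of 21.9 and 13.3, at 104 to 281 bp from earlier regions. Etv6, Lmo2 and Runx1 had 1 each, and that of Lmo2 reached 32.0. Myeloid transcription factor loci held 9 of 300 (interval 1.38 to 5.62%) in 8 of 36 genes, and Tfec, a relative of Mitf, had 2, with folds of 25.8 and 14.1. Survival and apoptosis loci held 6 of 155 (3.87%, 1.43 to 8.23%), and Bcl2, an inhibitor of apoptosis, had 2 of them.

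Markers of other cell types gave small counts. Monocyte and macrophage loci held 3 of 59 (5.08%, 1.06 to 14.1%), at Adgre1, Mertk and Mrc1. Dendritic loci held 2 of 64 (3.13%), both near Clec9a, a receptor of cross-presenting dendritic cells, with folds of 32.0 and 10.9, and both lay nearer to Clec12b. Mast cell, basophil and eosinophil loci held 2 of 30 (6.67%, 0.818 to 22.1%), at Cma1 and Mitf. Lymphoid loci held 2 of 34 (5.88%, 0.720 to 19.7%), at Lck and Tcf7, and erythroid and megakaryocyte loci 1 of 66 (1.52%, 0.0384 to 8.16%), at Tal1. Loci of non-myeloid tissue genes held 3 of 47 (6.38%, 1.34 to 17.5%), at Acta2, Col3a1 and Gfap, a share whose interval overlaps those of the neutrophil and leukocyte lists.

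Cohesin and CTCF loci held 2 of 75 (2.67%, 0.325 to 9.30%), a share near the 3.38% over all coding loci, and 2 of 24 genes (8.33%) had at least 1, against 6.76% of all coding genes. The 2 regions had folds of 6.25 inside Nipbl and 7.81 inside Pds5a, a cohesin-associated protein. Lamina and nuclear envelope loci held 3 of 165 (1.82%, 0.377 to 5.22%). They were inside Syne1, which encodes nesprin 1, with a fold of 24.2 and the nearest earlier region 15843 bp away, and inside Lmna and Sun2 with 10.1 and 7.03. Housekeeping loci held 0 of 113, which allows a share of up to 3.21%, just under the 3.38% over all coding genes. At a fold of at least 10 the upper bound was 3.45%, above the 2.12% over all coding loci. With the 200 bp gap it was 3.21%, above 2.87%. With 50 kb on each side the loci held 5 of 338 (1.48%, 0.482 to 3.42%), against 3.55%. Genes with 1 such region were named after their counts were seen.

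**Figure D5:**
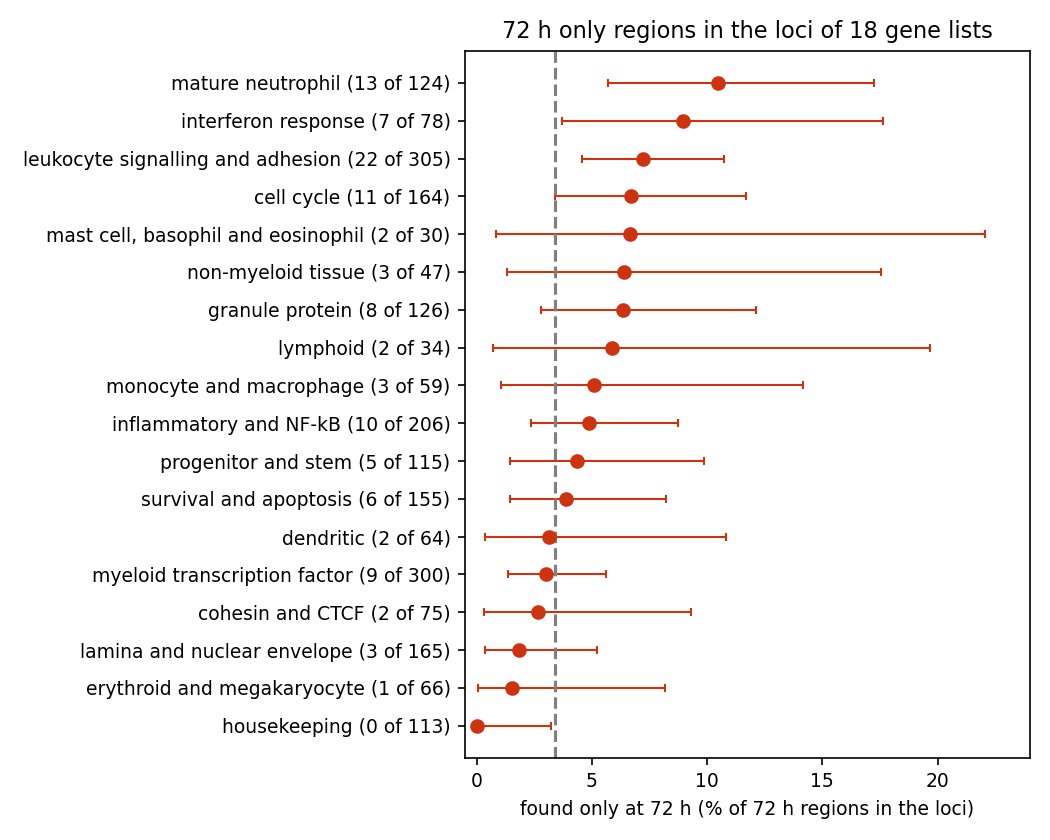
Share of the 72 h regions in the loci of each gene list that were found only at 72 h (horizontal axis, percent), for 18 lists ordered by share (vertical axis, with regions found only at 72 h of all 72 h regions in the loci); points are shares, whiskers 95% Clopper-Pearson intervals, and the dashed line is the 3.38% of all coding genes. The mature neutrophil list has the highest share (10.5%), the leukocyte list has 7.21% (4.58 to 10.7%; 3.36%, 1.55 to 6.28%, at a fold of at least 10) and housekeeping genes have 0 of 113.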

How the data were processed

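ATAC-seq was measured in 3 libraries, 1 per group: 0 h without dTAG, 6 h with dTAG and 72 h with dTAG. For each of them the authors deposited a peak list that holds no other library. Per the submitters' processing notes, the build was mm10 and the tools were BWA 0.7.17, MACS2 2.2.7, HOMER, bedtools 2.30.0, MultiQC 1.10.1, FastQC 0.11.8, limma, edgeR and ChIPseeker. The sources used here give no options, choice of fragments or handling of duplicates. The deposited lines give a position, a score (not used for results), a fold, which is the ratio of summit to background, and −log10 p-values and −log10 q-values, all as the authors' peak caller wrote them. Read totals were not used here, so depth is known only through the background inferred from the fold grid, 0.323, 0.327 and 0.281 fragments at 0, 6 and 72 h, and a missing region is not missing signal.

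Regions sharing at least 1 bp were matched, with no merging. Spans, start sites and promoter windows came from RefSeq GRCm38.p6; spans carry no strand, and the promoter table holds no chromosome 18 entries, so start-site and promoter shares leave out 59 of the regions found only at 72 h. Of 512 list entries, 507 matched (497 different genes). Shares have exact 95% Clopper-Pearson intervals, which cover counting error only. The overlap, gap and merging routines were checked on simulated data. Members and lists were chosen with earlier results of these data known. Genes were named by a rule: the 15 genes with the most regions (ties by fold), the nearest genes of the 15 highest folds, and list genes with 2 or more regions. A few genes that met this rule are not reported here. Motif shares in summit windows were planned; no genome was used here, so promoter windows replaced them, and the printed promoters were those of coding genes with at least 100 bases under a region. Python 3.11.15, numpy 2.4.6, pandas 2.3.3, scipy 1.17.1 and matplotlib 3.10.9 were used. The alternatives were other length, gap, q, fold, merging and locus settings.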

Additional observations from a re-analysis of the deposited data

How the results depend on the processing

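The share of regions found only at 72 h moved outside its interval under every alternative to the rule, while the number stayed within 1.5 times for the 200 bp gap (1579), the q limit (1283) and merging (1915). The number exceeded those of 0 h and 6 h under the length, 200 bp gap, q and fold alternatives, the only ones run for the other times. With no length minimum it was the lowest of the 3, with 35894, 28964 and 23783 at 0, 6 and 72 h. As shares of each list these were 19.7, 16.3 and 16.4%, so the share at 72 h was close to that at 6 h. A 150 bp minimum gave 4503 regions (6.04%), against 1134 only at 0 h and 1031 only at 6 h. A 300 bp minimum gave 317 (1.27%), against 17 at 0 h and 11 at 6 h. A gap of 200 bp to any earlier region left 3.12% (134 at 0 h) and 6.27% at gene ends, and a gap of 1000 bp left 996 (1.97%) and 4.22% at gene ends. Absence from the 0 h list alone gave 3202 (6.34%). A −log10 q of at least 10 left 2.72%, with 6.70% at gene ends, against 11 at 0 h and 15 at 6 h. A fold of at least 10 left 1049 (2.31%), with 6.20% at gene ends, against 1 at 0 h and 2 at 6 h. Merging 72 h regions within 150 bp gave 3.90%. A 2.5 kb limit put 16.6% at gene ends. Over all coding loci the share was 2.12% at a fold of at least 10 and 2.87% with the 200 bp gap, and that of the leukocyte list was 3.36% (1.55 to 6.28%) at a fold of at least 10. The interferon share with 50 kb on each side was 5.68% (2.76 to 10.2%), against 3.55% over all coding loci. For the 14 other lists, 40 of 42 settings stayed inside the main interval and 2 gave a share of 0. The neutrophil share without the Fpr or the Trem loci, alternatives chosen after seeing the data, was 8.70 or 7.89%, and leaving out both was not run. Of the 15 genes with the most regions, 11 stayed when regions were counted in the span with 10 kb on each side. Motif windows of 100 bp were not run.

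No paired analysis was possible because each time had 1 library and the labels carry no replicate numbers, and leaving out a replicate was not possible for the same reason. Depth limits the weakest regions most, since the lowest listed summits held 3 fragments under the reading of the fold given above.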

Other observations

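No miRNA hairpin of the 1005 in RefSeq's table was overlapped by a region found only at 72 h, and 27 lay within 10 kb of one. They included Mir21a, a miRNA expressed widely in myeloid cells, at 3366 bp, and the neighbours Mir23a, Mir27a and Mir24-2 on chromosome 8 at 9587, 9421 and 9258 bp. No other group of regions was set against the hairpins, so the 27 cannot be read as many or few.

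The bins of 1 Mb with the most regions found only at 72 h were those from 77 Mb on chromosome 15 and from 48 Mb on chromosome 17, with 11 each. They hold the Apol8 and Myh9 group and the Trem1 groups.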
